A study of Mus musculus with 44 samples.

Results

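Of the 25697 probes on the array, 168 (0.654%) reported RNAs that were present throughout and dropped steeply when the cells began to differentiate. They were chosen by 2 measured values: a detection p-value under 0.05 on all 15 input arrays, which 9122 probes met, and a mean input signal on day 3 at least 1.5 log2 units below that of day 0 after quantile normalization. These 168 falling probes were 1.84% of the always-detected probes, against 191 that rose by 1.5 or more. The arrays measured C2C12 cells, an established mouse myoblast line, in growth medium (day 0) and after the medium was exchanged for differentiation medium with less serum. AUF1 pulldowns were made on days 0, 2, 4 and 6 (4, 3, 3 and 4 arrays), IgG pulldowns on the same days (4, 3, 4 and 4 arrays), and input RNA was taken on days 0, 3 and 6 (5 arrays each). The input titles name DNA, but the descriptions and the molecule field of the same samples give RNA, and they are taken as RNA here. By the column names 2 of the 5 input arrays of each day carry the same experiment number (1 on day 0, 2 on day 3 and 3 on day 6), so they may not be separate experiments. Input arrays 36, 37 and 38 (days 0, 3 and 6) are numbered as experiments 1, 2 and 2, and arrays 39, 40 and 41 as 2, 2 and 3. The input experiment numbers thus do not follow the array order, and which of them marks an experiment cannot be told. In a pulldown, the lysate was incubated with beads carrying an antibody to AUF1 or a control IgG, and the RNA that came away with the beads was purified. The labels name no transfection or other agent in any group. They do not say whether replicates came from separate cultures, so every p-value below measures the spread between these arrays, which may be technical.

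When C2C12 myoblasts are shifted to low serum they leave the cell cycle, switch on muscle genes and fuse into myotubes, and transcripts that serve DNA replication and mitosis are known to decline in that step. AUF1, the product of the Hnrnpd gene, is an RNA-binding protein that recognizes AU-rich elements in the untranslated regions of many mRNAs and, in other settings, is known to affect how long they last. The table used here names probes by Illumina identifier alone, so which genes the 168 probes report, their roles, their probe sequences and the markers of myoblasts or of other cells are not analysed here. A bulk array measures RNA from all cells of a culture, and fewer cells of a kind cannot be told apart from less RNA per cell. All values are on a log2 scale, so that 1 unit is a doubling, and they are relative to the other probes of the same array.

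In input RNA the fall was complete by day 3 for most of the 168 probes and persisted to day 6. Because the day 3 and day 0 arrays chose the probes, the input values are a description and were not tested. The difference between day 3 and day 0 ranged from -6.03 to -1.502 with quartiles of -2.46, -1.87 and -1.65, so that 90 probes lay between -2 and -1.5, 78 at -2 or lower, 18 at -3 or lower and 2 at -4 or lower. The other 8954 always-detected probes had a median difference of -0.02. By day 6 the falling probes had a median difference from day 0 of -2.05, with 155 of them still at -1.5 or lower and a range of -6.77 to -0.86. Between day 3 and day 6 they moved little. The day 6 minus day 3 difference had a median of -0.05 (-0.91 to 0.87), 99 probes were lower on day 6 and 69 higher, and 164 had day 6 values that overlapped those of day 3. All day 6 arrays were below all day 3 arrays for 1.19% of the 168 and above for 1.19%, close to the 1.36% and 1.17% of the other always-detected probes. On every day the falling probes varied more among replicate arrays than the other always-detected probes. Their median SD was 0.33, 0.32 and 0.26 on days 0, 3 and 6 (n = 5 each), against 0.26, 0.21 and 0.18 for the others.

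A pair of probes fell much further than all others. ILMN_2875585 read 13.50, 13.52, 13.31, 13.62 and 12.86 on the day 0 input arrays, 7.47, 6.77, 7.88, 7.09 and 7.43 on day 3, and 6.94, 6.79, 6.22, 6.78 and 6.20 on day 6. Its mean was 65.4-fold lower on day 3 and 109-fold lower on day 6 than on day 0, and no later array reached the day 0 range. ILMN_2996648 read 12.66, 12.41, 12.66, 12.80 and 12.09 on day 0, 7.11, 6.50, 7.28, 6.56 and 6.75 on day 3, and 6.40, 6.26, 6.11, 6.35 and 6.25 on day 6. All of its day 6 values lay below all of its day 3 values, with a day 6 minus day 3 difference of -0.56. The next 6 probes in the order of fall were ILMN_2715802 (-3.57), ILMN_2847144 (-3.52), ILMN_2730329 (-3.51), ILMN_1212702 (-3.44), ILMN_2795040 (-3.36) and ILMN_2981801 (-3.30).

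At the limit itself the probes formed a continuum. ILMN_1217331, ILMN_2756008 and ILMN_2653927 were nearest inside it, with day 3 minus day 0 differences between -1.504 and -1.502, and ILMN_2430813, ILMN_3013874 and ILMN_2742867 were nearest outside it, between -1.498 and -1.477. For 166 of the 168 probes every day 3 array was below every day 0 array, against 12.01% of the other always-detected probes, a count drawn from the values that chose the probes. The exceptions were ILMN_2463181 and ILMN_1237993. The count was also 166 for day 6 against day 0, with ILMN_2463180 and ILMN_2463181 as exceptions; 16.1% of the other always-detected probes had all day 6 arrays below all day 0 arrays. These 3 exceptions, like the others singled out below as lone cases, were chosen after their values were seen. ILMN_2463181 read 10.37, 10.42, 7.29, 8.46 and 8.05 on the day 6 arrays, against 10.93, 11.16, 9.84, 9.91 and 11.11 on day 0. Its day 6 arrays thus fell into a high pair and 3 low ones, and ILMN_2463180 showed the same order, with 9.52, 9.86, 6.87, 7.73 and 7.48.

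Few probes changed further after day 3. The largest later falls were those of ILMN_2930897 (-0.91), ILMN_1236788 (-0.90) and ILMN_2875585 (-0.74), and besides ILMN_2996648 the probe ILMN_2718843 had all day 6 arrays below all day 3 arrays. The largest later gains were those of ILMN_2951691 (0.87), ILMN_2965903 (0.64) and ILMN_2729958 (0.53). ILMN_2951691 read 9.42, 9.40, 9.39, 9.55 and 8.79 on day 0, 7.58, 7.46, 7.61, 7.89 and 7.36 on day 3, and 8.63, 8.52, 8.33, 8.27 and 8.49 on day 6. Its day 6 values lay between those of the other days without overlap, and ILMN_2965903 was the other probe with all day 6 arrays above all day 3 arrays.

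In the pulldowns, which had no part in choosing the probes, the same RNAs were lower after day 0 with AUF1 and with IgG. Their median changes were smaller than in input. The pulldown values here are background-corrected and the input values above are not, and input was not sampled on days 2 and 4. A scale shared by both is used further below. All 168 passed the filter for testing (detection on 3 or more of the 29 pulldown arrays), as they would have without the day 0 arrays, and 95 (56.5%) were detected on every pulldown array, against 45.04% of the other always-detected probes. The median over the 168 probes on each AUF1 array lay between 8.15 and 8.67 (day 0), 7.81 and 8.02 (day 2), 7.84 and 7.97 (day 4), and 7.68 and 8.17 (day 6). On the IgG arrays it lay between 8.06 and 8.59, 7.76 and 7.88, 7.503 and 7.81, and 7.66 and 8.17 on the same days. Day 2 and day 4 arrays were all below the day 0 arrays of their own pulldown, and on day 6 the ranges overlapped that of day 0. With AUF1, 54 probes had their lowest mean on day 2, 61 on day 4 and 48 on day 6. These were 32.14%, 36.3% and 28.6%, against 31.97%, 22.3% and 25.8% of the other always-detected probes that were tested. With IgG the counts were 41, 95 and 30, or 24.4%, 56.5% and 17.9%, against 21.8%, 31.8% and 23.5%. The lowest mean was that of day 0 for 2.98% with AUF1 and 1.19% with IgG, against 19.9% and 22.9%. The AUF1 share of day 2 was thus close to that of the other probes, and the day 4 shares were above theirs. The share of probes detected per array differed between arrays of a group. It ran from 24.4% to 45.5% with AUF1 and from 25.6% to 46.8% with IgG. Its part in the medians per array was not tested.

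Tested probe by probe, calls were nearly all in the lower direction. With limma and Benjamini-Hochberg adjustment over the 13812 tested probes, 11 of the 168 fell by day 2 in the AUF1 pulldown (0.775% of all tested probes fell), 8 by day 4 (0.42%) and 30 by day 6 (3.33%). In the IgG pulldown 10 fell by day 2 (0.203%), 12 by day 4 (0.355%) and 18 by day 6 (0.384%). None of the 168 rose by day 2 or day 4, against 0.941% and 1.27% of all tested probes with AUF1 and 0.652% and 1.35% with IgG. By day 6, 2 had risen with AUF1 (4.14% of all tested probes) and 1 with IgG (1.94%). As shares of the 168, the probes that fell were 6.55%, 4.76% and 17.9% with AUF1 and 5.95%, 7.14% and 10.7% with IgG on days 2, 4 and 6, in each case above the share of all tested probes. The median change over the 168 probes was -0.61, -0.67 and -0.40 on days 2, 4 and 6 with AUF1, against medians of -0.06, -0.04 and 0.01 over all tested probes. With IgG it was -0.61, -0.77 and -0.42, against -0.01, -0.03 and -0.02. Below day 0 lay 152, 160 and 114 of the 168 with AUF1, against 56.5%, 55.1% and 48.5% of all tested probes. With IgG 153, 164 and 133 lay below, against 51.2%, 53.1% and 52.4%. Of the 168, 129 were called on no day in either pulldown, and this count over all tested probes is not given here.

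Several of these counts moved with single arrays, with the experiment number in the column names or with the processing. With median scaling every count was lower, and with array weights every count was higher. With only the compared groups in the fit, the AUF1 counts of days 2 and 4 and all IgG counts were lower. Those values are given in the last section. Without 1 array the AUF1 day 2 count was 6, 17, 7 and 7 (day 0 arrays of experiments 1, 2, 3 and 4) and 4 (day 2 array of experiment 2), and the AUF1 day 4 count was 3, 5 and 4 (day 0 arrays of experiments 1, 3 and 4) and 5 (day 4 array of experiment 3). The IgG day 2 count was 5 and 4 (day 2 arrays of experiments 1 and 2) and 5 and 6 (day 0 arrays of experiments 3 and 4), and the IgG day 6 count, both directions together, was 12 and 8 (day 6 arrays of experiments 3 and 4) and 8 (day 0 array of experiment 3). With the experiment number as a block, 17 fell by day 2 (0.42% of all tested probes) and 30 by day 4 (0.927%) in the IgG pulldown, and none rose (1.28% and 2.22%).

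The probes called lower on day 6 overlapped between the pulldowns. Both called 17, which was 56.7% of the AUF1 calls and 94.4% of the IgG calls. A further 13 were called with AUF1 alone and ILMN_2735184 with IgG alone. Of all 13812 tested probes, 460 (3.33%) were called lower with AUF1 and 53 (0.384%) with IgG. The overlap of those calls is not given here, so whether that of the 168 stands out cannot be told. The change from day 0 did not pass a test of difference between the pulldowns for any of the 168 (limma, 0 calls among all tested probes, and 3 of the 168 and 341 of all probes at an unadjusted p under 0.05). With AUF1 and IgG arrays of the same experiment and day as a block, an alternative added after the data were examined, there were again 0 calls among all tested probes, with 20 of the 168 and 1553 of all probes at an unadjusted p under 0.05 and a lowest adjusted p of 0.192 among the 168. Across the 168 probes the day 6 changes of the pulldowns correlated at 0.90, and across the other always-detected probes at 0.71, a description over probes whose arrays may share cultures.

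The pair with the deepest input fall also fell in both pulldowns by day 6. ILMN_2875585 read 10.08, 7.78, 8.84 and 10.41 on the AUF1 arrays of day 0, 7.71, 5.49 and 6.85 on day 2, 6.95, 5.72 and 7.20 on day 4, and 5.61, 4.71, 4.62 and 5.74 on day 6. On the IgG arrays it read 9.06, 8.12, 8.81 and 11.02 on day 0, 6.48, 6.27 and 6.76 on day 2, 5.84, 8.05, 6.24 and 6.66 on day 4, and 5.58, 5.86, 4.88 and 5.74 on day 6. No later array reached the lowest day 0 array of its own pulldown. By day 6 it fell by 4.11 ± 0.60 (SE) with AUF1 (limma, adjusted p = 8.26e-05) and fell by 3.74 ± 0.60 with IgG (adjusted p = 0.000335), and it was detected on only 2 of the 4 AUF1 and 3 of the 4 IgG arrays of that day. ILMN_2996648 fell by 3.81 ± 0.61 with AUF1 (adjusted p = 0.00024) and fell by 3.59 ± 0.61 with IgG (adjusted p = 0.000623).

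A set of probes showed most of its AUF1 pulldown fall after day 4, although its input was already low on day 3. Of the 30 probes called lower with AUF1 on day 6, 19 had covered less than 50% of that fall by day 4, 8 had covered 50% or more, and 3 were already as low on day 4. These 19 were 63.3% of the 30, while 72.8% of the 430 other tested probes called lower with AUF1 on day 6 had covered less than 50%, a larger share. Both sets were chosen by their day 6 values, which favours a late fall, and by how much was not tested. With IgG, 9 of the 18 called probes had covered less than 50%, 5 had covered 50% or more and 4 were already as low, and 9 of the 35 other called probes (25.7%) had covered less than 50%. ILMN_2981801 read 10.66, 10.85, 11.22 and 10.62 on the AUF1 arrays of day 0, 10.37, 10.85 and 10.47 on day 2, 9.73, 10.05 and 9.90 on day 4, and 7.63, 7.57, 6.53 and 5.95 on day 6. Its input read 9.90, 10.27, 9.98, 10.63 and 9.93 on day 0 and 6.94, 6.45, 6.77, 7.42 and 6.63 on day 3. In the AUF1 pulldown its day 2 values still overlapped those of day 0, and only the day 6 values stood far below. Its change was -0.27 ± 0.54 by day 2 (SE; limma, adjusted p = 0.887), -0.94 ± 0.54 by day 4 (adjusted p = 0.582) and -3.92 ± 0.50 by day 6 (adjusted p = 1.56e-05). With IgG it was -0.75, -0.98 and -2.54, of which the last passed the test (SE 0.50, adjusted p = 0.00336).

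ILMN_2785454 followed the same course. Its AUF1 means were 10.55 ± 0.39 (SD, n = 4), 10.36 ± 0.77 (n = 3), 9.23 ± 0.45 (n = 3) and 6.50 ± 0.94 (n = 4) on days 0, 2, 4 and 6, and by day 6 it fell by 4.05 ± 0.57 (SE; limma, adjusted p = 5.24e-05). With IgG it fell by 2.203 ± 0.57 by day 6 (adjusted p = 0.0336). ILMN_2847144 changed by -3.57 ± 0.71 with AUF1 (adjusted p = 0.0022) and -2.81 ± 0.71 with IgG (adjusted p = 0.0311) by day 6. For ILMN_2730329 the changes were -3.89 ± 0.65 (adjusted p = 0.00039) and -2.91 ± 0.65 (adjusted p = 0.0109). All of these were called lower. ILMN_2795040 fell by 3.74 ± 0.85 with AUF1 (adjusted p = 0.00652), and its IgG change of -2.95 ± 0.85 did not pass the test (adjusted p = 0.0726). ILMN_2951691 and ILMN_2729958, among the probes whose input recovered in part after day 3, changed by -2.37 ± 0.40 and -2.35 ± 0.39 with AUF1 by day 6 and were called lower (adjusted p = 0.00039 and 0.000387). The day 6 minus day 4 difference of these probes was not tested.

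Other probes fell early and stayed level or recovered in part. ILMN_2930897 read 10.81, 9.77, 10.45 and 9.91 on the AUF1 arrays of day 0, 9.01, 8.22 and 8.84 on day 2, 8.71, 8.54 and 8.01 on day 4, and 8.70, 8.99, 9.17 and 8.05 on day 6. All later arrays were below all day 0 arrays, and the lowest mean was that of day 4. Its change was -1.55, -1.82 and -1.51 on days 2, 4 and 6 with AUF1 (SE 0.31, 0.31 and 0.29; limma, adjusted p = 0.00688, 0.000921 and 0.00154) and -1.86, -2.14 and -1.19 with IgG (adjusted p = 0.00152, 2.99e-05 and 0.0222). ILMN_2735184 changed by -1.53 and -1.68 by day 2 with AUF1 and IgG (adjusted p = 0.00789 and 0.00508), and by day 6 its changes were -0.78 with AUF1 (adjusted p = 0.121) and -1.22 with IgG (adjusted p = 0.0182). Over all 168 probes, day 6 means were above day 4 means for 111 with AUF1 and 124 with IgG (66.1% and 73.8%), against 58.6% and 57.2% of the other always-detected probes. By the column names, no AUF1 array of day 4 is of experiment 2, and no pulldown array of day 2 is of experiment 3. The part of these missing experiments in the courses by day was not tested.

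When all 44 arrays were normalized together, so that pulldowns and input shared a scale, most of the falling probes moved far less in the pulldowns. On this scale the median over the 168 lay between 8.32 and 8.83 with AUF1, 8.23 and 8.74 with IgG and 9.21 and 9.58 in input on the day 0 arrays, and input lay between 6.45 and 7.19 on day 3. The input arrays of day 3 were below all pulldown arrays of days 2 and 4, whose medians were at least 7.68. The median day 6 minus day 0 difference over the 168 was -0.39 with AUF1, -0.40 with IgG and -2.46 in input, and over the other always-detected probes 0.03, -0.03 and -0.04. The 191 rising probes were also damped, with medians of 0.78, 0.77 and 2.47. The input day 0 arrays had helped to choose the falling and the rising probes for a large change, so some of the gap between input and pulldowns is built into the choice, and how much was not tested. Of the falling probes, 143 with AUF1 and 146 with IgG covered less than 50% of their input fall, whereas 10 with AUF1 and 1 with IgG fell at least as far as in input. Ordered by their input fall, the 42 probes with the deepest fall had medians of -0.71 with AUF1, -0.57 with IgG and -3.27 in input, and held 13 of the 30 AUF1 and 11 of the 18 IgG calls. The next 42 had medians of -0.22, -0.39 and -2.63 and held 5 and 4 of those calls. The 42 after them had medians of -0.39, -0.42 and -2.16 and held 7 and 1, and the 42 with the shallowest fall had medians of -0.35, -0.39 and -1.97 and held 5 and 2. Beyond the deepest 42, the pulldown medians thus did not follow the order of the input fall. Across the 168 probes the day 6 change correlated with that in input at 0.39 with AUF1 and 0.46 with IgG, and across the other always-detected probes at 0.34 and 0.45, which describes probes measured on the same arrays.

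Some RNAs with a deep input fall did not follow it in the pulldowns. ILMN_2715802, next after that pair in the order of input fall, read 11.85, 11.82, 12.01, 12.07 and 12.77 in input on day 0, 8.80, 8.75, 8.21, 8.30 and 8.60 on day 3, and 8.16, 8.22, 7.78, 7.82 and 8.16 on day 6. With AUF1 it read 11.07, 10.92, 10.59 and 10.34 on day 0, 10.17, 8.99 and 10.39 on day 2, 10.43, 9.80 and 10.13 on day 4, and 11.21, 11.15, 10.32 and 10.44 on day 6. Its input arrays of day 0 lay above all later ones, while its AUF1 arrays of day 6 spanned the range of day 0. By day 6 its change was 0.05 ± 0.33 (SE) with AUF1 (limma, adjusted p = 0.976) and -0.22 ± 0.33 with IgG (adjusted p = 0.999).

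ILMN_2980661 and ILMN_2980663 rose in the pulldowns while their input fell. ILMN_2980661 read 10.38, 10.34, 10.72, 10.40 and 11.81 in input on day 0, 8.38, 8.04, 9.33, 9.64 and 9.54 on day 3, and 8.39, 8.50, 8.19, 8.76 and 8.27 on day 6. In the AUF1 pulldown it read 10.91, 10.86, 9.84 and 10.19 on day 6, against 9.07, 8.97, 9.15 and 8.45 on day 0, and in the IgG pulldown 10.45, 10.02, 10.10 and 9.93 on day 6, against 8.67, 8.63, 8.72 and 8.85 on day 0. In both pulldowns all day 6 arrays were above all day 0 arrays. The rise was 1.54 ± 0.30 (SE) with AUF1 (limma, adjusted p = 0.00167) and 1.40 ± 0.30 with IgG (adjusted p = 0.00658). ILMN_2980663 rose by 1.29 ± 0.30 with AUF1 (adjusted p = 0.00769), and its IgG change of 1.09 ± 0.30 did not pass the test (adjusted p = 0.0556). With median scaling in place of quantile normalization the direction stayed and these calls ended (adjusted p = 0.432 and 0.765 for ILMN_2980661 with AUF1 and IgG, 0.452 for ILMN_2980663 with AUF1). ILMN_2965903, next highest in both pulldowns, had changes of 0.72 ± 0.44 with AUF1 (adjusted p = 0.434) and 0.90 ± 0.44 with IgG (adjusted p = 0.489).

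On day 6 the falling probes were higher in pulldown RNA than in input RNA, relative to the other probes. On the joint scale, 105 of the 168 were higher in the AUF1 pulldown than in input (limma, 15410 probes tested, of which 19.2% were higher) and 6 were lower (20.1%). With IgG 101 were higher (19.1%) and 6 lower (18.9%). The median difference was 1.24 with AUF1 and 1.20 with IgG, against 0.07 and 0.06 over all tested probes. On day 0, where input values had chosen the probes and no test was made, the medians were -0.78 and -0.80, with 127 and 131 probes below 0. The difference was 3.37 ± 0.28 (SE) with AUF1 for ILMN_2715802 (adjusted p = 5.75e-12) and 3.34 ± 0.28 with IgG (adjusted p = 8.21e-12). ILMN_2875585 differed from input by -0.30 ± 0.50 with AUF1 (adjusted p = 0.677) and 0.10 ± 0.50 with IgG (adjusted p = 0.916). This comparison was added after the data were examined, the probes had been chosen for a low input level on another day, and pulldown arrays are numbered 1 to 32 and input arrays 33 to 47, so an array series and the pulldown step cannot be told apart. With median scaling the AUF1 count was 44 higher and 6 lower, and the share of all tested probes under that scaling is not given here.

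How many of the falling probes differed between AUF1 and IgG pulldowns depended on the fit. With limma and no block, 0 were called on day 0 (0.145% of all tested probes lower and 0 higher). At an unadjusted p under 0.05, 7 of the 168 were lower and 16 higher that day, as were 1712 of all tested probes (12.4%) over both directions. On day 2, 1 was called lower and 3 higher (1.55% and 0.579%), and on day 4, 0 lower and 3 higher (0.413% and 0.275%). On day 6 no probe of the table was called, and 0 of the 168 and 132 of all probes (0.956%) had an unadjusted p under 0.05. The median AUF1 minus IgG difference over the 168 was 0.10, 0.08, 0.11 and 0.08 on days 0, 2, 4 and 6, above the medians of all tested probes by 0.09, 0.14, 0.16 and 0.07, but with median scaling it lay below theirs by 0.17, 0.56, 0.26 and 0.10. That scaling moved the median of all tested probes to -0.36, -0.85, -0.73 and -0.29. With the experiment number as a block, 13 were lower and 21 higher on day 0 (6.28% and 6.49% of all tested probes) and 25 lower and 29 higher on day 2 (14.7% and 11.4%). On day 6 the fit with that block called 0 of the 168 lower and 0 higher.

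In the fit without a block, ILMN_1212702 was the probe called on both days 2 and 4. It read 7.85, 8.72 and 8.32 with AUF1 on day 2, against 5.64, 6.30 and 7.11 with IgG, and 8.16, 9.49 and 8.33 with AUF1 on day 4, against 6.46, 6.22, 7.64 and 6.96 with IgG. The groups did not overlap on either day, and the difference was 1.95 ± 0.45 (SE; limma, adjusted p = 0.0291) on day 2 and 1.84 ± 0.42 (adjusted p = 0.0452) on day 4. On day 0 the arrays did not overlap either, with 9.86, 10.53, 10.14 and 9.80 for AUF1 and 7.65, 9.14, 9.10 and 9.07 for IgG, and on day 6 they did, with 6.39, 7.08, 7.06 and 6.33 for AUF1 and 6.19, 6.78, 7.14 and 6.07 for IgG. ILMN_2729958 was higher by 1.87 ± 0.45 on day 2 (adjusted p = 0.0316), with 8.94, 10.18 and 8.84 with AUF1 and 6.86, 7.44 and 8.05 with IgG. ILMN_2598852 was higher by 1.30 ± 0.31 on day 4 (adjusted p = 0.0487), with 10.59, 10.64 and 10.89 with AUF1 and 9.12, 9.40, 9.34 and 9.76 with IgG.

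The lower call of the fit without a block was that of ILMN_2858359 on day 2. It read 4.59, 4.58 and 6.25 with AUF1 and 7.99, 7.48 and 7.09 with IgG. This probe differed by -2.38 ± 0.60 (SE, limma, adjusted p = 0.0397). It was detected on only 1 of the 3 AUF1 arrays. The remaining calls, named after their values were seen, were ILMN_2951691 on day 2 (1.70 ± 0.46, adjusted p = 0.0493) and ILMN_2476139 on day 4 (0.96 ± 0.23, adjusted p = 0.0472). These counts rested on single arrays. On day 2 the count of 4 became 1 (AUF1, experiment 1, left out), 0 (AUF1, experiment 2), 0 (IgG, experiment 1), 0 (IgG, experiment 2) or 9 (IgG, experiment 4). On day 4 the count of 3 became 0, 0 and 1 when the AUF1 array of experiment 1, 3 or 4 was left out, and 0, 5 and 0 when the IgG array of experiment 1, 2 or 4 was.

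The falling probes also marked a difference between experiments on day 6 that ran through pulldowns and input. For 40 of the 168 (23.8%), the arrays that the column names number as experiments 1 and 2 were above all arrays of experiments 3 and 4 in AUF1, in IgG and in input alike, and for 2 (1.19%) below. Among the other always-detected probes these shares were 0.815% and 1.94%, and among the 191 rising probes 0 were above and 10 (5.24%) below. The median over the 168 was 8.06 and 8.17 on the AUF1 arrays of experiments 1 and 2, against 7.68 and 7.73 on those of experiments 3 and 4, with 8.13 and 8.17 against 7.66 and 7.66 on the IgG arrays. In input it was 7.61 and 7.64, against 7.25, 7.38 and 7.28, of which 2 arrays are numbered as experiment 3. The input arrays were sorted here by experiment numbers that do not follow the array order. Of the 19 probes that fell late with AUF1, 11 showed this order in all 3. ILMN_2847144 read 10.19, 9.80, 7.17 and 8.39 on the AUF1 arrays of experiments 1 to 4, 10.39, 11.28, 6.26 and 8.15 on the IgG arrays, and 10.02 and 10.28, against 8.27, 8.97 and 8.14, in input. This pattern was noticed in the data, and its part in the day 6 changes was not tested.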

How the data were processed

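Per the file headers, the deposited table holds, for each array, a non-normalized probe signal intensity and a detection p-value. GenomeStudio 1.6.0 is named in the submitters' processing notes. No source used here states a background subtraction (lowest signal 32.4). All 44 signal columns were used and no 2 were identical (0 pairs); columns were assigned to groups by their names, which also carry experiment and array numbers.

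Input log2 intensity was quantile normalized over 15 arrays. For the tests, the 29 pulldown arrays, and separately all 44, went through neqc of limma 3.58.1 in R 4.3.3 (background from detection p-values, offset 16, quantile normalization, log2). Probes detected (p under 0.05) on 3 or more arrays were fitted with a mean per group and 1 spread shared by groups by lmFit and eBayes, with Benjamini-Hochberg adjustment over all of them. Calls are at adjusted p under 0.05. Quantile normalization hides changes of total RNA. Array number limits the precision. The scripts were tested on simulated data.

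Same-numbered experiments were taken as pairs where every correlation of their deviations from group means was over 0.1: IgG day 2 (0.54 to 0.72) and day 4 (0.50 to 0.73) against day 0, and AUF1 against IgG on days 0 (0.26 to 0.77), 2 (0.11 to 0.48) and 6 (0.16 to 0.84). The SEs and adjusted p-values that the Results give for named probes are from fits without these pairs.

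Members and lists were chosen with earlier results of these data known. Probes named are the 8 with the deepest fall, 3 on each side of the limit, the 3 highest and 3 lowest for input day 6 minus day 3 and for each pulldown's day 6 minus day 0, and the 2 highest and 2 lowest AUF1 minus IgG calls per day. Planned gene lists and markers need gene names and are not analysed here. Alternatives were other normalizations, no detection filter, each comparison's groups alone, array weights, leaving out arrays under 30% detected, each array in turn, and the replicate block.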

Additional observations from a re-analysis of the deposited data

Results flagged for a closer look

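In 152 sets of 4 to 5 arrays, 13 held an array far from the others of its group; about 1 in 20 would be set apart by chance. The median over the 168 falling probes was 8.15 on the AUF1 day 0 array of experiment 2, against 8.601 to 8.67 on the other 3. Of the 13, 5 lay on input array 45 of day 0. There ILMN_2715802 read 12.77 (others 11.82 to 12.07), ILMN_2980661 read 11.81 (10.34 to 10.72) and ILMN_2980663 read 10.60 (9.17 to 9.48), all high, while ILMN_2951691 read 8.79 (9.39 to 9.55) and ILMN_2729958 read 8.04 (8.76 to 9.03), both low. On the IgG day 6 array of experiment 3, ILMN_2996648 read 4.33 (others 5.30 to 5.31) and ILMN_1236788 read 4.55 (7.90 to 8.45), both low, and ILMN_2930897 read 9.397 (8.25 to 8.37), high. ILMN_1212702 read 7.65 on the IgG day 0 array of experiment 1 (9.07 to 9.14), ILMN_2729958 read 6.45 on the IgG day 6 array of experiment 4 (7.18 to 7.30) and ILMN_2980663 read 6.76 on the IgG day 4 array of experiment 3 (7.54 to 7.63). ILMN_2785454 read 6.55 on input array 43 of day 3 (6.19 to 6.26).

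Among 54 comparisons of day 6 changes, 3 probes had every day 6 pulldown array above the mean of day 0 and every day 6 input array below it. Day 6 minus day 0 was 1.54 with AUF1 and 1.40 with IgG, against -2.31 in input, for ILMN_2980661. It was 1.29 and 1.09, against -2.15, for ILMN_2980663, and 0.72 and 0.90, against -1.11, for ILMN_2965903, whose day 6 and day 0 arrays overlapped in both pulldowns. These differences between pulldown and input were not tested, and the pulldown values are background-corrected while the input values are not.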

How the results depend on the processing

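The number of probes meeting the rule was 168, 250 with neqc and 202 with median scaling (both sets held all 168), 150 at a detection limit of 0.01, 78 at a limit of -2 and 147 to 183 with 1 input array left out. The median input day 6 minus day 0 was -2.40 with neqc and -2.12 to -1.995 with 1 array left out, and day 6 minus day 3 was -0.11 to 0.02. Counts of calls over both directions, for AUF1 on days 2, 4 and 6 and then IgG on days 2, 4 and 6, were 6, 0, 11, 1, 1 and 7 with median scaling and 35, 50, 60, 48, 52 and 48 with array weights. With only the compared groups in the fit they were 1 and 1 for AUF1 on days 2 and 4 and 2, 3 and 5 for IgG. Without the detection filter they were 7 and 4 for AUF1 on days 2 and 4 and 6 and 12 for IgG on days 2 and 6. Without arrays under 30% detected they were 2 and 13 for AUF1 on days 2 and 4. With the replicate block (experiment number) they were 27 and 15 for AUF1 on days 2 and 4 and 17, 30 and 34 for IgG. For AUF1 minus IgG on days 2 and 4, median scaling gave 34 and 5 (all lower), no filter 2 and 1, the groups alone 0 and 0, leaving out the poorly detected arrays 0 and 0, array weights 27 and 19 (17 on day 0) and the replicate block 54 and 48 (34 on day 0). The numbers were not taken as pairs for AUF1 days 2, 4 and 6, IgG day 6 or AUF1 against IgG on day 4. AUF1 minus input on day 6 had 50 calls with median scaling. The cause of these shifts was not tested. Apart from the block shares given above, the share of all tested probes called under each alternative is not given here. The counts therefore show how the calls moved, not whether the 168 stood out under that setting. Leaving out 1 array gave 4 to 17, 3 to 11 and 25 to 30 for AUF1 on days 2, 4 and 6, 4 to 13, 8 to 17 and 8 to 17 for IgG, 0 to 9 and 0 to 5 for AUF1 minus IgG on days 2 and 4, 0 to 0 on days 0 and 6 and for the difference of changes (also 0 with either replicate block), and 94 to 112 (AUF1) and 99 to 108 (IgG) against input.

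Named probes were rerun only in the pulldown comparison that named them, by a day 6 change or an AUF1 minus IgG call. None of those changes reversed under the alternatives run. The AUF1 minus IgG calls on days 2 and 4, however, were mostly higher as reported and all lower with median scaling. ILMN_2875585, ILMN_2785454 and ILMN_2981801 with AUF1, and ILMN_2875585 and ILMN_2996648 with IgG, kept their day 6 calls under all 15 alternatives. The rerun AUF1 minus IgG calls were those of ILMN_2858359, ILMN_1212702 and ILMN_2729958 on day 2 and of ILMN_1212702 and ILMN_2598852 on day 4. They were lost in 6 to 10 of 13 to 14 alternatives, with limma adjusted p up to 0.988. The AUF1 minus IgG calls of ILMN_2951691 and ILMN_2476139, and the other pulldown changes given for named probes, were not rerun. Of the 168 probes, 8 were undetected on every array of 1 or more pulldown groups, and 0 of these were called.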
